A study of Homo sapiens with 6 samples.

Results

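HSPBP1 and the HSP70 machinery it works with were followed in KYSE450, an established line of human esophageal squamous cell carcinoma, after knockdown of the chromatin protein HMGB2. The members are 10 named genes, HSPBP1, HSPA1A, HSPA1B, HSPA8, HSPA4, HSPH1, BAG1, BAG3, STUB1 and DNAJB1, looked up by gene name among the 27887 rows of the deposited expression table. A row of exactly that name existed for 9 of the 10, and 8 of those rows reached the mean of 1 FPKM needed to enter the fit over all genes. HSPA1A had no row of its own name and the HSPA1B row was listed at or near 0, because the values of both genes stood in numbered copies of the row, which are described with them. HSPBP1 was chosen by its FPKM, which was among those with the lowest ratio of shHMGB2 to mock libraries, and the other members were selected with that result known. Values of the members are therefore a description and carry no test.

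The comparison set 3 shHMGB2 libraries, from cells labelled HMGB2 knockdown and infected with a virus carrying a short hairpin RNA against HMGB2, beside 3 mock libraries, from cells labelled WT that received a mock virus. Both groups are KYSE450 cells, kept in the same medium, per the labels. The labels name neither the number of hairpin sequences nor the cargo of the mock virus. Replicates 2 and 3 of each group carry the words repeat sample in their labels and nothing says that they were separate cultures, so the spread between libraries may be technical. HMGB2 itself, the target, stood at 22.1, 24.5 and 27.8 FPKM in shHMGB2 libraries and at 115.8, 111.4 and 108.6 FPKM in mock libraries.

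HSP70 proteins are chaperones that grip unfolded stretches of other proteins and let go of them in a cycle driven by ATP. J-domain proteins such as DNAJB1 deliver the client and start ATP breakdown, and nucleotide exchange factors such as HSPBP1, the BAG proteins and the HSP110 proteins HSPA4 and HSPH1 remove ADP so that the client is released. STUB1 encodes CHIP, a ubiquitin ligase that docks on the chaperone and marks its clients for degradation, and HSPBP1 protein is known to hold back CHIP.

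Library facts that touch these genes are few. Summed FPKM ranged from 740684 to 829437. On log2(FPKM + 1), pairs of libraries of the same group correlated at 0.985 to 0.989 (Pearson's r) and pairs across groups at 0.978 to 0.987. Read counts of single libraries were not at hand. For genes listed in only 1 library, the authors' group values came in whole multiples of a step (100% within a tolerance of 0.01), and these steps gave relative depths of 0.699 to 1.31. All 9 squamous epithelial markers were above 1 FPKM, with summed levels of 6940 to 7673 FPKM in shHMGB2 and 8076 to 8478 FPKM in mock. Of the fibroblast, leukocyte and endothelial markers, 1 of 6, 1 of 3 listed rows and 1 of 4 were above 1 FPKM, with sums of 3.96 to 4.38, 4.37 to 4.78 and 2.39 to 2.77 FPKM in shHMGB2 and 2.91 to 3.69, 6.87 to 7.62 and 1.87 to 2.58 FPKM in mock. The 4 packaging cell markers, 2 of them above 1 FPKM, summed to 181 to 195 FPKM in shHMGB2 and 229 to 273 FPKM in mock. INA and NEFM were below 1 FPKM, so nearly all of the sum came from NEFL and GAL. The part of packaging cells in the results was not tested.

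The promoter windows of the members are shown first, with the letters of the heat shock element, the site that heat shock factors bind, and of the GC box. The windows run from 250 bases before a RefSeq start to 50 bases from it on (RefSeq, GRCh38.p14), and 9 of the 10 members had at least 1. In the window of HSPBP1 at chr19:55280334-55280633 on the minus strand, capitals mark the GC box GGGCGG, which was searched on both strands.
HSPBP1: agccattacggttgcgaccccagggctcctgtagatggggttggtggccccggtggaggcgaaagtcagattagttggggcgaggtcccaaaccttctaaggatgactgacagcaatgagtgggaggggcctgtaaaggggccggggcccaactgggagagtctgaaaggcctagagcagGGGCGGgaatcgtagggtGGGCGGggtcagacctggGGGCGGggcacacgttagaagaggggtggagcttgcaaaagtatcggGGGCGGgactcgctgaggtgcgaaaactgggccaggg
This window holds 4 GC boxes, and further windows of HSPBP1 hold 2 and 1. Windows of the other members hold from 0 in HSPH1 to 7 in a DNAJB1 window, with 5 in BAG1 and 6 in BAG3. Of the 34796 distinct windows of the reference, 44.9% hold at least 1, and the share that holds 4 or more was not counted. A pair of facing heat shock units, GAANNTTC or TTCNNGAA, was in none of the 3 windows of HSPBP1 and in 13.5% of all windows. No match says only that these letters are not in the window.

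Of the 9 members with a window, 4 held such a pair: HSPA1A, HSPA1B, HSPA8 and DNAJB1. The stretches around the pairs are printed with the units in capitals, and where 2 pairs overlap they share a unit. They lie at chr6:31815421-31815460 and chr6:31827617-31827656 on the plus strand and at chr11:123062338-123062382, chr11:123062163-123062207, chr19:14518451-14518490 and chr19:14518421-14518460 on the minus strand.
HSPA1A: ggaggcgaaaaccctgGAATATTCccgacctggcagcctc
HSPA1B: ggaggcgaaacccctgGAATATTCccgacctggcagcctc
HSPA8 distal: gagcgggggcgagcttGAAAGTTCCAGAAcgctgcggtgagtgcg
HSPA8 proximal: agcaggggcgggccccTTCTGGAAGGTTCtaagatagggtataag
DNAJB1 distal: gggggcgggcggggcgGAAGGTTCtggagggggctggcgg
DNAJB1 proximal: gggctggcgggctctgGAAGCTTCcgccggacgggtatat
The first base of the unit lies 106 bases before the start in HSPA1A and 105 bases before it in HSPA1B, whose windows are identical at 277 of 299 compared positions (92.6%). In HSPA8 the 2 runs begin 230 and 55 bases before the start, and in DNAJB1 the 2 pairs begin 77 and 47 bases before it. Another DNAJB1 window, of a further annotated start, holds 1 more pair.

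HSPBP1 was the member with the widest separation between the groups. Its level was 10.8, 11.0 and 10.7 FPKM in shHMGB2 libraries, against 34.1, 29.1 and 28.7 FPKM in mock libraries. All shHMGB2 libraries lay below all mock libraries. In bulk RNA, fewer cells that express a gene and less of its RNA per cell cannot be told apart. The means were 10.8 ± 0.144 FPKM in shHMGB2 and 30.6 ± 3.05 FPKM in mock (SD, n = 3 each), so that 35.4% of the mock level remained, a 2.82-fold lower level. The log2 fold change was -1.41 with an SE of 0.077, on the log2(FPKM + 1) scale. HSPBP1 thus ranked 25th from the lowest among the 13409 genes tested, where numbered copies of a gene count separately. In the authors' deposited table its group values were 332 in shHMGB2 and 983 in mock, with a log2 fold change of -1.56. The spread was unequal: the coefficient of variation was 1.32% over the shHMGB2 libraries and 9.95% over the mock libraries, where replicate 1 stood above the other 2.

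**Figure D1:**
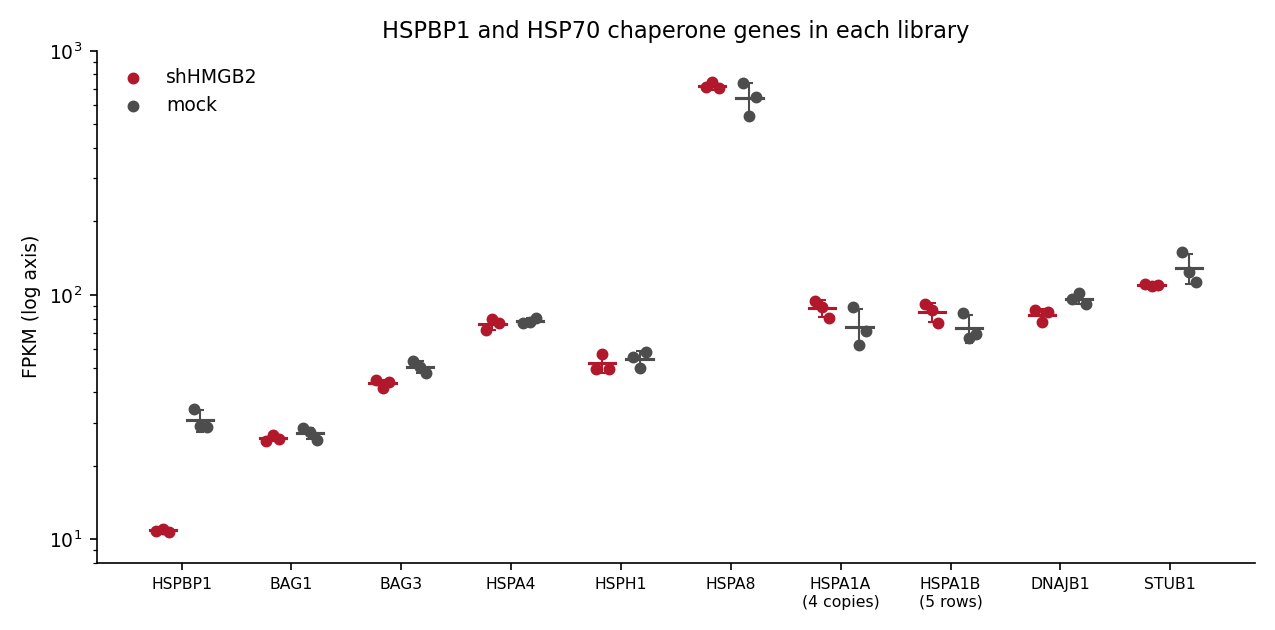
FPKM on a log axis of each member in the 3 shHMGB2 libraries (red, left) and the 3 mock libraries (grey, right); points are libraries, horizontal bars are means and vertical bars are SDs. HSPBP1 lies near 10.8 FPKM in shHMGB2 and near 30.6 FPKM in mock, while the other members differ by much smaller steps and HSPA1A and HSPA1B are sums over their rows.

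HSPBP1 lies on chromosome 19 at 55262223 to 55280383 on GRCh38. No stretch of 50 bases in its longest protein-coding GENCODE 29 transcript, which is 1768 bases long, occurred in a transcript of another gene, and the same held for HSPA4, HSPH1, BAG1, BAG3 and STUB1. Of the stretches of DNAJB1, 2.57% occurred in the pseudogene DNAJB1P1. Of those of HSPA8, 15.4% occurred in transcripts of 10 other genes, led by the pseudogene HSPA8P1. HSPA1A shared 72.6% of its stretches with other genes and HSPA1B 73.5%, nearly all of them with each other. Values of these last 2 genes are uncertain gene by gene, since the authors' counting could split their reads.

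Among the other exchange factors, BAG1, HSPA4 and HSPH1 overlapped between the groups. BAG1, a BAG-domain protein that couples HSP70 to the proteasome, had 25.2, 26.6 and 25.8 FPKM in shHMGB2 libraries and 28.4, 27.5 and 25.5 FPKM in mock libraries, with a log2 fold change of -0.07 (SE 0.062). HSPA4, an HSP110 protein, had 71.9, 79.8 and 76.6 FPKM in shHMGB2 and 76.4, 77.5 and 80.7 FPKM in mock (log2 fold change -0.04, SE 0.059). Neither gene had all libraries of a group on one side of the other. HSPH1, the heat-inducible HSP110 protein, had 49.8, 57.5 and 49.96 FPKM in shHMGB2 and 55.5, 50.1 and 58.3 FPKM in mock (log2 fold change -0.06, SE 0.083), with shHMGB2 replicate 2 close to the highest mock library.

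BAG3, the BAG protein that steers chaperone clients into autophagy, had lower levels in every shHMGB2 library than in any mock library. Its values were 44.7, 41.7 and 43.8 FPKM in shHMGB2 and 53.7, 50.8 and 47.9 FPKM in mock, with means of 43.4 ± 1.51 and 50.8 ± 2.88 FPKM (SD, n = 3 each). The log2 fold change was -0.22 (SE 0.062), which is 85.4% of the mock mean. The step is small beside that of HSPBP1, and the nearest libraries of the 2 groups were 44.7 FPKM in shHMGB2 and 47.9 FPKM in mock.

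The 5 exchange factors together made up 202, 217 and 207 FPKM in shHMGB2 libraries and 248, 235 and 241 FPKM in mock libraries. HSPBP1 supplied 5.33%, 5.08% and 5.19% of that sum in shHMGB2, against 13.8%, 12.4% and 11.9% in mock. The share of HSPA4 was 36.5% ± 0.807 in shHMGB2 and 32.4% ± 1.42 in mock, and that of BAG1 12.4% ± 0.0958 in shHMGB2 and 11.2% ± 0.588 in mock (SD, n = 3 each). HSPBP1 is part of the sum, so these shares move with it by construction. BAG3 held 20.8% ± 1.44 in shHMGB2 and 21.0% ± 1.01 in mock, and HSPH1 25.1% ± 1.27 in shHMGB2 and 22.6% ± 1.44 in mock (SD, n = 3 each), with overlapping groups for both.

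Among the HSP70 genes, HSPA8, the constitutive cytosolic HSP70 called HSC70, was the most abundant member. Its level was 707, 748 and 702 FPKM in shHMGB2 libraries and 736, 542 and 648 FPKM in mock libraries. The groups overlapped, and mock replicate 2 was the lowest of the 6 libraries. The log2 fold change was 0.17 (SE 0.11). It was 0.06 without mock replicate 2 and 0.28 without mock replicate 1.

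HSPA1A and HSPA1B, which encode the stress-inducible HSP70, were spread over numbered rows. HSPA1A had 4 numbered copies, of which HSPA1A-2 held 63.9, 61.8 and 52.5 FPKM in shHMGB2 and 60.4, 42.0 and 49.1 FPKM in mock, and HSPA1A-4 held 30.2, 27.2 and 27.2 FPKM in shHMGB2 and 28.1, 19.6 and 21.7 FPKM in mock. The HSPA1B row of that exact name averaged 0.00333 FPKM in shHMGB2 and was listed at 0 in each mock library, while HSPA1B-2 held 66.1, 61.2 and 51.6 FPKM in shHMGB2 and 56.1, 47.7 and 46.4 FPKM in mock. A lookup by exact name thus returns no HSPA1A and an HSPA1B close to 0, although copies 2 and 4 of both genes were well above the filter. Copies 3 and 5 of both genes averaged under 1 FPKM in each group.

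Summed over its rows, HSPA1A had 94.7, 89.4 and 80.5 FPKM in shHMGB2 and 89.1, 62.2 and 71.2 FPKM in mock. HSPA1B had 91.9, 86.9 and 76.5 FPKM in shHMGB2 and 84.5, 66.8 and 68.9 FPKM in mock. In both genes the groups overlapped, through mock replicate 1. The log2 fold changes of the sums were 0.26 (SE 0.16) and 0.21 (SE 0.13), and for the 2 genes added together 0.24 (SE 0.15). HSPA8 was 4.17 ± 0.345 times this joint sum in shHMGB2 and 4.36 ± 0.235 times in mock (SD, n = 3 each). The largest copy held 67.3% ± 1.96 of HSPA1A in shHMGB2 and 68.1% ± 0.749 in mock (SD, n = 3 each), so the split between rows was alike in both groups within its spread.

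**Figure D2:**
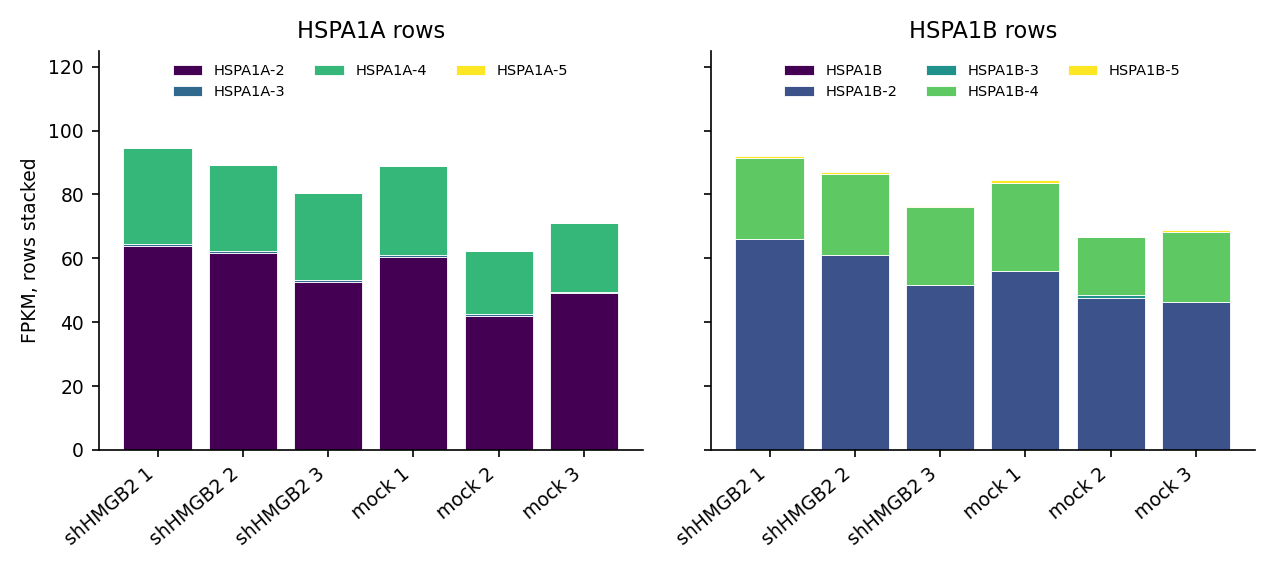
FPKM of the rows of HSPA1A (left panel) and HSPA1B (right panel), stacked, in each shHMGB2 and mock library. Copies 2 and 4 carry nearly all of the signal of both genes, the HSPA1B row without a number is too small to see, and mock replicate 1 reaches the height of the shHMGB2 libraries.

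DNAJB1, the HSP40 that feeds clients to HSP70, and STUB1 had somewhat lower levels in shHMGB2. DNAJB1 had 86.7, 77.4 and 84.8 FPKM in shHMGB2 libraries and 96.2, 101.5 and 91.6 FPKM in mock libraries, with a log2 fold change of -0.22 (SE 0.067). STUB1 had 110.8, 108.3 and 109.6 FPKM in shHMGB2 and 149.4, 124.5 and 113.0 FPKM in mock, with a log2 fold change of -0.22 (SE 0.098). The groups did not overlap in either gene. For STUB1 the mock libraries were widely spread, and mock replicate 3 lay just above the highest shHMGB2 library. Without mock replicate 1 the log2 fold change of STUB1 was -0.11.

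**Figure D3:**
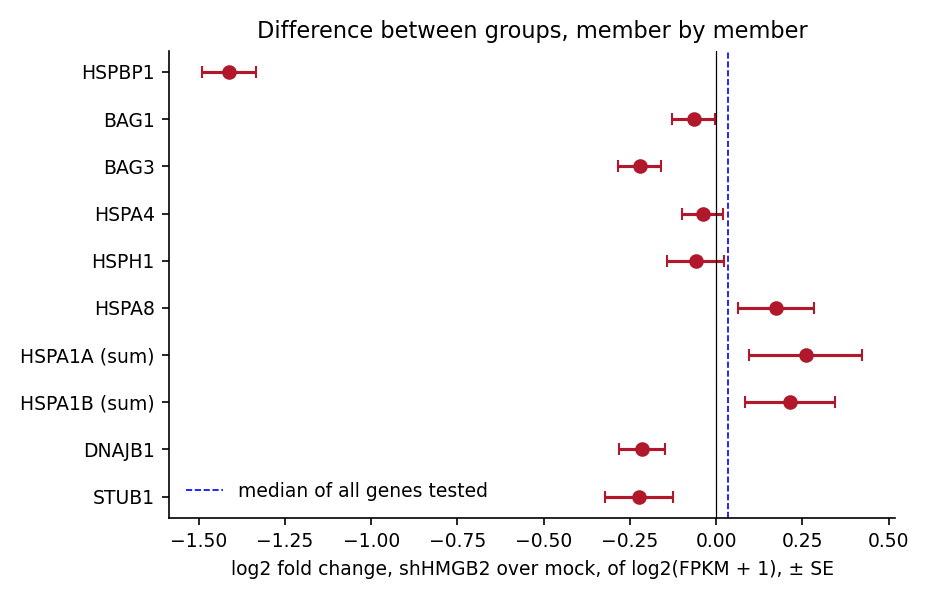
Log2 fold change, shHMGB2 over mock, of log2(FPKM + 1) for each member, with bars of 1 SE; the dashed line is the median of all genes tested, 0.04. HSPBP1 lies at -1.41, BAG3, STUB1 and DNAJB1 near -0.22, and the HSP70 genes between 0.17 and 0.26.

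Counted against the background, the members stood as follows. In limma, 1 of the 8 members tested was called at an adjusted p under 0.05, HSPBP1, and it was lower. Over all genes tested 6.75% were called, 3.3% higher and 3.45% lower. Since HSPBP1 was picked for this difference, nothing is read from that count. Under median-of-ratios scaling the calls over all genes were 349 higher and 571 lower, against 442 higher and 463 lower without it.

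In 4 of the 8 members, HSPBP1, BAG3, STUB1 and DNAJB1, every shHMGB2 library was below every mock library, which held for 14% of all genes tested. The authors' deposited table lists the same 4 members as lower at an adjusted p under 0.05 and 0 as higher, where 9.23% of the genes with an adjusted p there were lower and 6.13% higher. Its log2 fold changes were -0.29 for BAG3, -0.31 for STUB1 and -0.28 for DNAJB1. In limma these 3 genes were not called. The authors' log2 fold change lay below that of limma in the members tested, as at 0.095 against 0.17 for HSPA8. The same was seen in genes outside the members, as at -0.03 against 0.03 for HSPA9. It did not hold for every gene, as at -0.22 against -0.24 for PPID. The share over all genes was not counted, so nothing about the members is read from this. HSPBP1 was picked for its difference and the other members with that result known, so nothing is read from the counts of members here either.

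The balance of HSPBP1 to its partners shifted with its own level. For each 100 FPKM of STUB1 there were 9.74, 10.2 and 9.80 FPKM of HSPBP1 in shHMGB2 libraries and 22.9, 23.4 and 25.4 FPKM in mock libraries. For each 100 FPKM of HSPA8, HSPA1A and HSPA1B together there were 1.22 ± 0.0308 FPKM of HSPBP1 in shHMGB2 and 3.91 ± 0.373 FPKM in mock (SD, n = 3 each). FPKM is per length of transcript, so these are ratios of transcripts, not of proteins.

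The genes whose log2(FPKM + 1) followed HSPBP1 most closely over the 6 libraries, among those with a mean of at least 5 FPKM and a symbol, were EXOSC3, RNF5, SLC6A8, TUSC2 and SENP3. Their Pearson's r with HSPBP1 was 0.999, 0.998, 0.997, 0.997 and 0.997. The 6 points share the difference between the groups, which sets most of each r. EXOSC3, a subunit of the RNA exosome, had 28.2, 28.3 and 28.2 FPKM in shHMGB2 and 44.1, 42.4 and 41.2 FPKM in mock. TUSC2, encoded in a tumour suppressor region of chromosome 3, had 8.35, 8.03 and 7.60 FPKM in shHMGB2 and 18.5, 16.7 and 15.7 FPKM in mock. In both genes, as in HSPBP1, mock replicate 1 stood above the other mock libraries and the groups did not overlap. SLC6A8, the creatine transporter, averaged 19.7 ± 0.330 FPKM in shHMGB2 and 33.8 ± 1.74 FPKM in mock (SD, n = 3 each). SENP3, a SUMO protease, averaged 38.6 ± 0.331 FPKM in shHMGB2 and 54.7 ± 1.46 FPKM in mock (SD, n = 3 each). RNF5, a ubiquitin ligase, is uncertain, since 6 rows of the table have the same 6 values. Among the members themselves, BAG3 had the highest r with HSPBP1, 0.926, followed by DNAJB1 at 0.847.

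Of the 8 protein-coding genes on each side of HSPBP1 on chromosome 19, 7 reached 1 FPKM. In limma 0 of them were called, 2 had an unadjusted p under 0.05, and the authors' deposited table had 2 of them as lower. Over all genes, 3745 of 13409 had an unadjusted p under 0.05, and the authors' deposited table had 9.23% as lower, so 7 genes are too few to set against these shares. PPP6R1, a regulatory subunit of protein phosphatase 6 whose gene ends 3205 bases from HSPBP1, had 31.1, 29.02 and 29.3 FPKM in shHMGB2 and 29.6, 31.3 and 29.7 FPKM in mock (log2 fold change -0.02, limma adjusted p = 0.849). BRSK1, the neighbour 3613 bases away on the other side, was at 0.24 FPKM or less in every library, and TMEM86B, the gene beyond PPP6R1, had 0.36, 0.61 and 0.53 FPKM in shHMGB2 and 0.82, 0.46 and 0.75 FPKM in mock. Neither passed the filter. KMT5C, a histone H4 methyltransferase and the nearest gene tested on that side, had 6.02 ± 0.125 FPKM in shHMGB2 and 5.40 ± 0.306 FPKM in mock (SD, n = 3 each; limma adjusted p = 0.246). PTPRH, a receptor phosphatase, had the smallest p, with 1.11, 1.09 and 1.02 FPKM in shHMGB2 and 1.56, 2.56 and 2.01 FPKM in mock (log2 fold change -0.54, SE 0.13, limma adjusted p = 0.052). It passed in limma under all 3 other scalings and without mock replicate 1, and its shHMGB2 libraries were close to the filter of 1 FPKM.

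**Figure D4:**
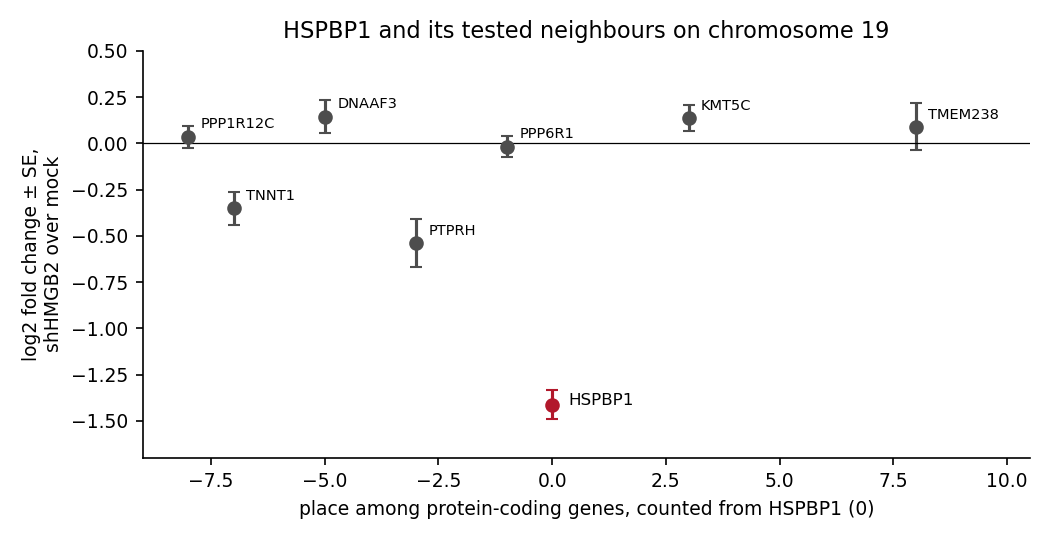
Log2 fold change, shHMGB2 over mock, with bars of 1 SE, of HSPBP1 (red) and the 7 tested genes among its 8 protein-coding neighbours on each side, by their place in the order of genes. HSPBP1 lies at -1.41 and its nearest tested neighbour PPP6R1 at -0.02, and the lowest neighbour, PTPRH, at -0.54.

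The wider HSP70 network held 1 called gene. Over 6 lists with 154 genes in all, 133 reached 1 FPKM, and in limma 1 of them was lower, 0 were higher and 132 did not pass. That is 0.752%, beside 6.75% over all genes, and 24 of the 133 had an unadjusted p under 0.05, beside 3745 of the 13409 genes tested. In the authors' deposited table, 6 were higher and 12 lower at an adjusted p under 0.05, counted over all listed rows, also those below 1 FPKM. The shares over all genes there were 6.13% and 9.23%. The median log2 fold change of the network was -0.007, beside 0.04 over all genes. These shares over all genes are also the background for the counts of each list below.

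The called gene was DNAJA2, a cytosolic J-domain protein that works with HSPA8. It fell to 93.3, 92.7 and 98.5 FPKM in shHMGB2 libraries, against 115.6, 116.6 and 112.8 FPKM in mock libraries. The groups did not overlap, which held, in one direction or the other, for 35.6% of all genes tested. The difference was -0.28 on the log2 scale with an SE of 0.052 (limma adjusted p = 0.0253). It no longer passed when mock replicate 2 was left out (limma adjusted p = 0.111). Leaving out an shHMGB2 library also ended the call, with limma adjusted p = 0.088 for replicate 1, 0.116 for replicate 2 and 0.0675 for replicate 3. Of 38 J-domain proteins tested, 37 did not pass, the median log2 fold change was 0.02 and the range was -0.28 to 0.49. The upper end was DNAJC13, an endosomal J-domain protein named here after its values were seen, with 12.9, 13.4 and 11.2 FPKM in shHMGB2 and 7.17, 8.90 and 9.81 FPKM in mock (limma adjusted p = 0.0509). The authors' deposited table listed 2 J-domain genes as higher and 5 as lower.

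The other HSP70 and HSP110 genes, 8 of 11 tested, held 0 called genes in limma, 0 with an unadjusted p under 0.05 and 0 in the authors' deposited table. HSPA5, the HSP70 of the endoplasmic reticulum, had the smallest p, with 263, 280 and 300.5 FPKM in shHMGB2 and 303, 332 and 296 FPKM in mock (limma adjusted p = 0.25). HSPA9, the mitochondrial HSP70, averaged 232 ± 10.8 FPKM in shHMGB2 and 228 ± 7.43 FPKM in mock (SD, n = 3 each; limma adjusted p = 0.778). The groups of both genes overlapped.

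Of 16 other exchange factors and HSP70 adaptors, all tested, 0 were called in limma, 2 had an unadjusted p under 0.05 and 1 was lower in the authors' deposited table. ST13, the adaptor Hip that holds HSP70 in its ADP state, had the smallest p, with 117.3, 127.7 and 125.2 FPKM in shHMGB2 and 108, 104 and 108 FPKM in mock (log2 fold change 0.21, SE 0.056, limma adjusted p = 0.0678). All its shHMGB2 libraries lay above all mock libraries, where groups without overlap in either direction made up 35.6% of all genes tested. SIL1, the exchange factor of the endoplasmic reticulum and a relative of HSPBP1, had 20.4, 18.0 and 18.8 FPKM in shHMGB2 and 23.5, 20.8 and 18.7 FPKM in mock (limma adjusted p = 0.38).

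HSP90 chaperones and co-chaperones, 22 tested, also held 0 called genes in limma, with 4 at an unadjusted p under 0.05, and 2 higher and 1 lower in the authors' deposited table. PPID, a cyclophilin of the HSP90 complex, had 51.6, 52.9 and 46.0 FPKM in shHMGB2 and 61.1, 58.7 and 58.4 FPKM in mock (limma adjusted p = 0.0726). CDC37, which brings kinases to HSP90, averaged 144 ± 3.62 FPKM in shHMGB2 and 161 ± 15.2 FPKM in mock (SD, n = 3 each; limma adjusted p = 0.215). The genes listed as higher by the authors were FNIP1 and FNIP2, with log2 fold changes of 0.35 and 0.32 (limma adjusted p = 0.104 and 0.109). FNIP2 was close to the filter of 1 FPKM. Over the 22 genes the median was -0.03 on the log2 scale.

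Heat shock factors, small heat shock proteins and chaperonins, 24 tested, had 0 called genes in limma and the lowest median of the 6 lists, -0.08. In this list 7 genes had an unadjusted p under 0.05, and 4 were lower and 0 higher in the authors' deposited table. PFDN2, a subunit of the prefoldin complex, had 218, 219 and 245 FPKM in shHMGB2 and 308, 299 and 254 FPKM in mock (log2 fold change -0.33, SE 0.088, limma adjusted p = 0.0678). It passed without mock replicate 3 (limma adjusted p = 0.0338), the mock library nearest to the shHMGB2 libraries.

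CHIP partners, the BAG3 pathway and genes of aggregate clearance, 25 tested, had 0 called genes in limma and 4 at an unadjusted p under 0.05. The authors' deposited table, counted over all 27 rows of the list, had 2 higher and 1 lower. Not all of those listed as higher had reached 1 FPKM. HDAC6, a deacetylase that carries aggregates to the aggresome, had 7.11, 6.75 and 6.66 FPKM in shHMGB2 and 5.36, 5.33 and 5.72 FPKM in mock (log2 fold change 0.28, SE 0.067, limma adjusted p = 0.0525). Its groups did not overlap, as in 35.6% of all genes tested, and it lay just outside the threshold. UBE2D2, an E2 enzyme that CHIP uses, averaged 44.0 ± 1.96 FPKM in shHMGB2 and 49.6 ± 2.02 FPKM in mock (SD, n = 3 each; limma adjusted p = 0.12).

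**Figure D5:**
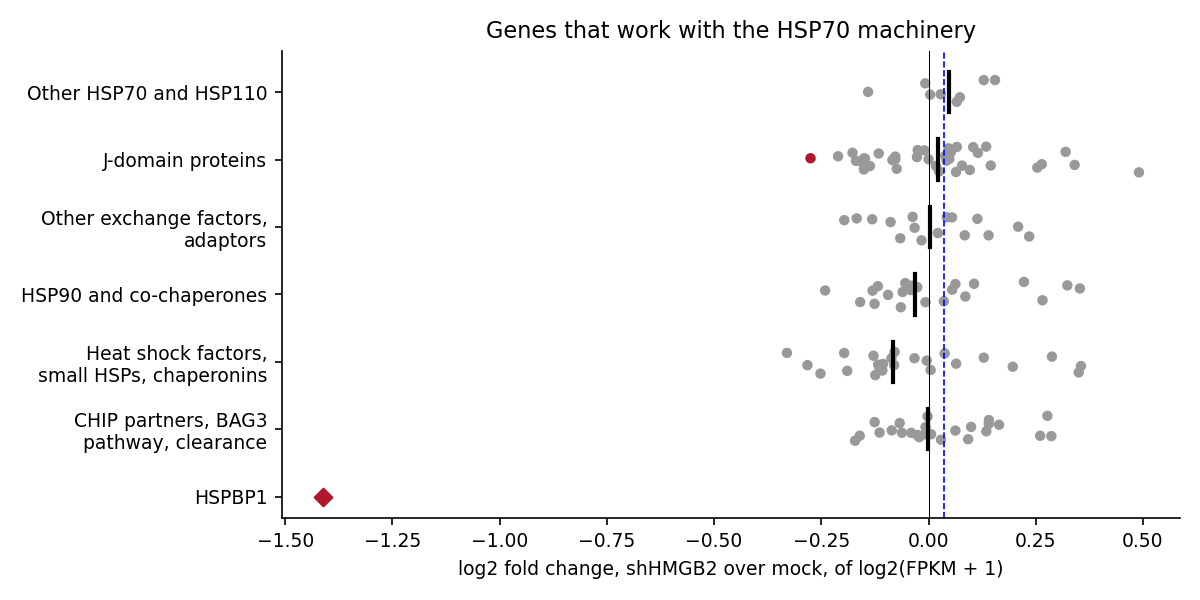
Log2 fold change, shHMGB2 over mock, of log2(FPKM + 1) for each tested gene of 6 lists (grey, not called; red, called), with list medians as black bars, the median of all genes as a dashed line and HSPBP1 as a diamond. The listed genes lie between -0.33 and 0.49 and HSPBP1 at -1.41.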

How the data were processed

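RNA-seq of 6 KYSE450 libraries, 3 shHMGB2 and 3 mock, was read from 1 deposited table. The submitters' processing notes list Bowtie2 2.2.5, RSEM 1.2.12 and hg38 and do not say what each was used for. The authors deposited FPKM per library with 2 decimals, per the file headers. They also deposited a normalized signal for each group, a log2 fold change that equals the log2 ratio of those signals, and p-values and adjusted p-values from a test not given in the sources used here. Groups came from the sample titles.

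From the FPKM values, log2(FPKM + 1) was fitted for the 13409 genes whose mean reached 1 FPKM, in limma 3.58.1 under R 4.3.3. Each row was taken as 1 gene, so numbered copies of a gene entered separately, also in ranks and in shares over all genes. Group was the only term, variances were moderated by empirical Bayes with a trend on the mean, and 2-sided p-values were adjusted by Benjamini-Hochberg over these genes (threshold 0.05). With no counts, counting error is not given. A count test was not run, because reads per library were not recovered. SEs of summed rows come from their own spread. On simulated data with independent noise for each gene, changes were put only into genes with a mock mean of at least 5 FPKM. The fit recovered 95 of 100 genes changed by 1 on the log2 scale and 60 of 100 changed by 0.5, with 7 false calls. Smaller changes, and changes in genes of lower level, were not simulated, so a gene that was not called may still differ.

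Members and lists were chosen with earlier results of these data known. Named genes are the members, HMGB2, from each list the 3 called genes with the largest change or, with none, the smallest p, the nearest and the called neighbours of HSPBP1, and the 5 genes most correlated with it. SIL1, HSPA9, CDC37, FNIP1, FNIP2, UBE2D2 and DNAJC13 were added after their values were seen. Gene positions, neighbours and promoter windows are from RefSeq on GRCh38.p14, and transcripts from GENCODE 29. Alternatives covered the pseudocount, filter, scaling, variance model, threshold, replicate block, the authors' adjusted p, single libraries left out and, added after seeing the data, numbered copies summed.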

Additional observations from a re-analysis of the deposited data

How the results depend on the processing

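The log2 fold change of HSPBP1 was -1.41, ran from -1.46 to -1.33 with any single library left out, and was -1.56 in the authors' deposited table. The sign of HSPA4 was positive under quantile normalization and without shHMGB2 replicate 1. Over all genes 905 were called in limma, 2087 in the authors' deposited table, 412 without the filter on low values, 2034 at a threshold of 0.1, and 290 to 873 with single libraries left out. With numbered copies summed, 1102 were called. Same-numbered libraries did not deviate together (correlations of -0.012, -0.038 and -0.096), so no pairing by number was seen. Whether same-numbered libraries were prepared together cannot be told from these values. With the replicate block 372 genes were called, and 0 J-domain proteins. The J-domain count of 1 was 2 with a mean of at least 5 FPKM, under upper-quartile scaling, under quantile normalization and with copies summed, 7 in the authors' deposited table, 3 at a threshold of 0.1, and 0 to 2 with single libraries left out. The remaining lists had 0 calls. Exchange factors and adaptors had 1 under quantile normalization, 2 at 0.1 and 1 in the authors' deposited table. HSP90 genes had 1 at 0.1 and 3 in the authors' deposited table. Heat shock factors and chaperonins had 1 under quantile normalization, 2 at 0.1, 4 in the authors' deposited table and 0 to 1 with libraries left out. CHIP partners had 1 with a pseudocount of 0.1, without the filter, without a trend and with copies summed, 3 at 0.1 and 3 in the authors' deposited table. Neighbours of HSPBP1 had 1 with a mean of at least 5 FPKM, under each of 3 scalings and without a trend, 2 with copies summed, at 0.1 and in the authors' deposited table, and 0 to 1 with libraries left out. The causes were not tested. With 3 libraries a group and no read counts, the low levels of PTPRH and BRSK1 limit what can be read from them.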
